A study of Homo sapiens with 3 samples.

Results

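The comparison set H446 cells treated for 48 h with 10 µM of 3-bromoascochlorin (BAS) against the same cells treated for 48 h with 5 µM. H446 is an established line of human small cell lung cancer, and both libraries carry the compound, so each difference given here is between doses of BAS and not between BAS and its absence. There was 1 library per dose, and the vehicle library of the series was not used here. A gene was compared where its level averaged at least 1 FPKM over both libraries, which kept 11522 of 16793 gene symbols. FPKM scales fragment counts to transcript length and to the reads mapped in the library, so that levels can also be set side by side between genes. Differences are given on the log2(FPKM + 1) scale as 10 µM minus 5 µM, which understates the ratio of low genes. With no replicate on either side, none of the differences could be set against replicate spread, and none was tested. A gene is called higher or lower at 10 µM where that difference was at least 1.5-fold. The headers of the value columns read ASB85 and ASB810, and the labels name BAS at 5 and 10 µM. Each column was given the dose in the label of its own sample. No source used here explains the header codes themselves, and the direction of each difference depends on the labels.

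BAS is a brominated derivative of ascochlorin, a fungal metabolite that joins a substituted aromatic aldehyde to a terpene-derived side chain. Ascochlorin is known as an inhibitor of respiratory complex III, which passes electrons from ubiquinol to cytochrome c, and derivatives of this class also inhibit dihydroorotate dehydrogenase, the ubiquinone-linked step of pyrimidine synthesis. The title of the series names the MAPK pathway, in which RAS, RAF, MEK and ERK relay growth factor signals to transcription factors, and in which JNK and p38 relay stress signals. Small cell lung cancer is a neuroendocrine tumour, defined by neuronal secretory genes and by transcription factors such as NEUROD1 and INSM1. A dose comparison asks which of these genes, and which stress and growth programmes, stood higher or lower at the larger dose.

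The identity genes of the line were present at both doses. NEUROD1, the transcription factor that names one class of small cell lung cancer, was at 93.15 FPKM at 5 µM and 91.62 FPKM at 10 µM. INSM1, a neuroendocrine transcription factor, was at 81.79 and 95.14 FPKM, and NCAM1, the adhesion molecule CD56, at 60.14 and 65.84 FPKM. POU2F3, the factor of tuft-cell-like tumours, was near 0 at both doses. Of 15 blood cell markers 10 had a row. They summed to 7.99 FPKM at 5 µM and 10.9 at 10 µM, and CD68, a lysosomal protein of macrophages that other cells also make, gave most of that sum at 6.05 and 7.34. PTPRC, the pan-leukocyte CD45, was at 0.92 and 1.09, LYZ at 0.25 and 1.17, HBA1 at 0.43 and 1.05, and HBA2 at 0 in both libraries. Of 12 fibroblast and endothelial markers 11 had a row, and they summed to 516.69 and 526.88 FPKM. Nearly all of that sum came from COL3A1, a fibrillar collagen, and CDH5, the endothelial cadherin, which were abundant at both doses, while DCN, LUM and PECAM1 stayed under 0.4 FPKM. No list of foreign cells had a member called higher or lower.

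The libraries were close to each other. At 10 µM 52 genes were called higher (0.451% of the genes compared) and 43 were called lower (0.373%), 95 in all (0.825%). A 2-fold limit left 5 higher (0.0434%) and 4 lower (0.0347%), or 9 genes (0.0781%). The median difference over all 11522 genes was 0.04, and the central 95% of genes lay between −0.33 and 0.38. The direction depended on level. Genes averaging 1 to 5 FPKM had a median of 0.06 (n = 2798), those of at least 300 FPKM had a median of −0.11 (n = 194), and 58.8% of all genes were above 0, 40.9% below and 0.321% (37 genes) at the same value. The spread was also widest among the low genes, with a robust standard deviation (scaled from the median absolute deviation) of 0.179 at 1 to 5 FPKM against 0.148 over all genes. The summed values were 507342 FPKM at 5 µM and 492102 at 10 µM, and the read depth behind them is unknown.

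**Figure D1:**
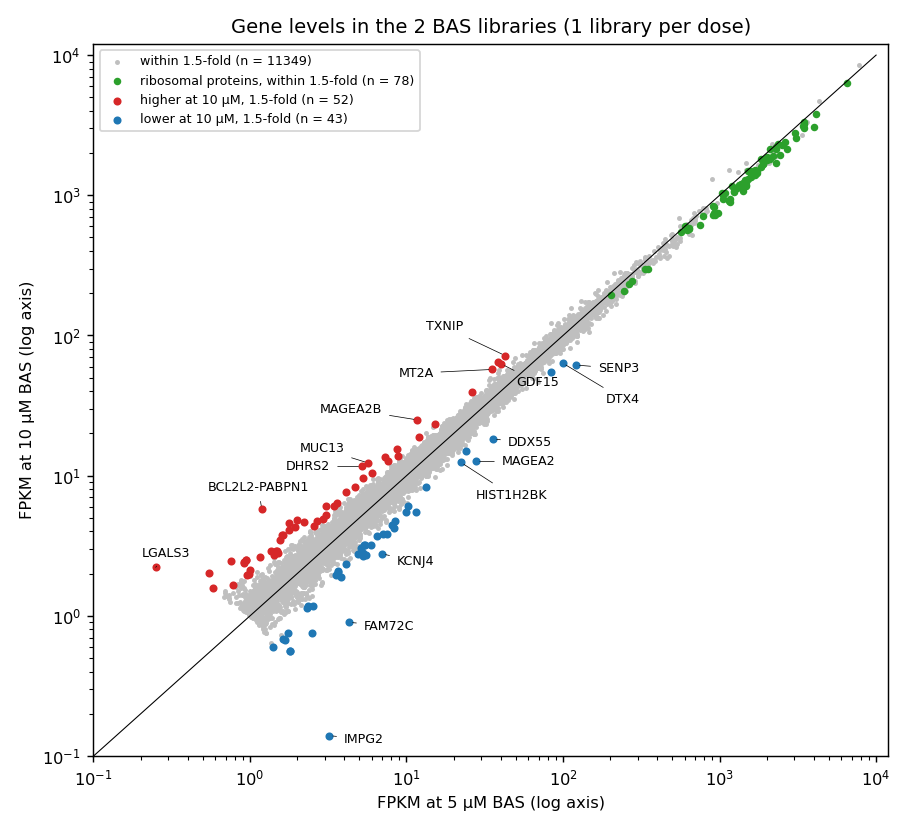
FPKM of each gene at 5 µM (horizontal, log axis) against 10 µM (vertical, log axis) of BAS, 1 point per gene and 1 library per dose, with the diagonal marking equal levels. The 52 genes called higher (red) and 43 called lower (blue) are mostly low genes, and 76 of the 78 ribosomal protein genes (green) lie under the diagonal at the upper right.

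Low genes and genes without a sequence of their own took a larger share of the calls than of all genes. Of the 95 called genes 59 (62.1%) averaged under 5 FPKM, against 24.3% of all genes compared. A level under 1 FPKM in 1 of the libraries was found for 20 of the 95 (21.1%) and for 1.31% of all genes compared. Such genes passed the filter only through the library in which they were high, so they had to differ. Shared sequence was measured only between the longest protein-coding transcripts of the gene symbols. Symbols that name a read-through transcript of a pair of neighbouring genes made up 8 of the 95 (8.42%) against 0.260% of all genes, and genes that share at least 50% of their 50-base stretches with another gene made up 17 (17.9%) against 2.35%. Without these classes and with a mean of at least 5 FPKM, 29 called genes were left, 16 higher and 13 lower. The plot of leading genes shows both levels of 28 of them, and these carry the next paragraphs. The calls nearest the limit were YJEFN3, SAT1 and CFAP61 just inside on the higher side, with TBX20, PALM2-AKAP2 and PSTK just outside. On the lower side RBM14-RBM4, TMEM187 and C19orf73 were just inside, and CCDC102B, MACROD1 and LOC107984351 just outside.

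Among the 16 genes higher at 10 µM, the largest differences were those of DHRS2 and MUC13. DHRS2, a mitochondrial and nuclear short-chain dehydrogenase that reduces dicarbonyl compounds, was at 5.20 FPKM at 5 µM and 11.66 at 10 µM, a difference of 1.03. MUC13, a transmembrane mucin of glandular epithelia, was at 5.69 and 12.33 FPKM (0.99). Lower in level and smaller in difference was DMKN, dermokine, a secreted protein of keratinizing skin, at 4.13 and 7.68 FPKM (0.76). GPRC5A, a retinoic acid-induced orphan receptor of lung epithelium, was at 3.62 and 6.42 FPKM, and FOXD1, a forkhead transcription factor of the kidney stroma and retina, at 12.08 and 18.96.

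The abundant genes on this side were fewer. TXNIP, which binds thioredoxin and restrains glucose uptake, was at 42.73 FPKM at 5 µM and 71.85 at 10 µM, 1.68 times as much. LARP6, an RNA-binding protein that recognizes the stem-loop of type I collagen messages, had the same ratio of 1.68, from 38.66 to 65.06 FPKM. GDF15, a secreted stress hormone of the TGF-beta family, was at 40.43 and 62.59 FPKM (difference 0.62). SAT1, the spermidine and spermine acetyltransferase that starts polyamine breakdown, was at 26.05 and 39.65 FPKM and only just past the limit. Close under the limit among genes of at least 50 FPKM was H1F0, the linker histone of resting and differentiated cells, at 83.75 and 123.68 FPKM (0.56). KRT80 (112.28 and 157.53 FPKM), the Notch-related factor HES6 (49.37 and 68.70) and the neuronal ubiquitin hydrolase UCHL1 (131.19 and 176.51) were also among the 10 highest of that abundance, none of them called.

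LGALS3 had the largest difference on the higher side outside the read-through symbols and genes of shared sequence, at 1.37. This gene encodes galectin-3, a sugar-binding protein of epithelia and macrophages, and it was at 0.25 FPKM at 5 µM and 2.22 at 10 µM, so both levels are low. Other low genes called higher were SCRG1 at 0.76 and 2.46 FPKM, CRIP1, a small LIM-domain protein, at 0.55 and 2.02, and CD36, the fatty acid and lipoprotein receptor, at 1.60 and 3.79. LGALS3, SCRG1 and CRIP1 were under 1 FPKM at 5 µM and passed the filter only through the 10 µM library, so they had to differ. NPR3, the clearance receptor of natriuretic peptides, was at 1.63 and 3.76 FPKM, and BEX2, a small neuronal protein, at 1.95 and 4.33.

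Among the 13 genes lower at 10 µM, SENP3 was the most abundant. It encodes a nucleolar protease that removes SUMO2 and SUMO3 and takes part in ribosome maturation, and it was at 121.18 FPKM at 5 µM and 61.61 at 10 µM (−0.96). Its neighbour EIF4A1, which a read-through transcript joins to it and which was looked at after its values were seen, was at 525.84 and 426.56 FPKM (−0.30). DDX55, a nucleolar RNA helicase of large-subunit assembly, was at 35.79 and 18.27 FPKM (−0.93). A list of 23 ribosome production factors, which holds neither gene, had a median of 0.01 and no call.

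The other abundant genes on the lower side were DTX4, an E3 ligase of the Deltex family that acts on Notch, at 99.69 FPKM at 5 µM and 63.45 at 10 µM (−0.64), and PTP4A2, a prenylated phosphatase also called PRL-2, at 83.98 and 54.77 (−0.61). CERS4, a ceramide synthase, was at 7.52 and 3.84 FPKM. DBP, a circadian PAR bZIP transcription factor, was at 9.93 and 5.52 FPKM, and TAF12, a subunit of TFIID and SAGA, at 23.86 and 15.08. TKFC, the kinase of dihydroxyacetone, stood at 10.25 and 6.08 FPKM, and FBXO4, an F-box subunit of ubiquitin ligases, at 8.04 and 4.45. Of low genes without shared sequence, IMPG2, a proteoglycan of the retinal photoreceptor matrix, was at 3.21 and 0.14 FPKM and had the lowest difference of all (−1.88). IMPG2 passed the filter only through the 5 µM library, so it had to differ. KCNJ4, an inward rectifier potassium channel, was at 6.99 and 2.77 FPKM (−1.08). Just short of the limit among abundant genes were CPNE1, a calcium-dependent membrane-binding protein, at 69.26 and 46.36 FPKM (−0.57), and TBCA, a tubulin folding cofactor, at 146.26 and 105.90 (−0.46).

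**Figure D2:**
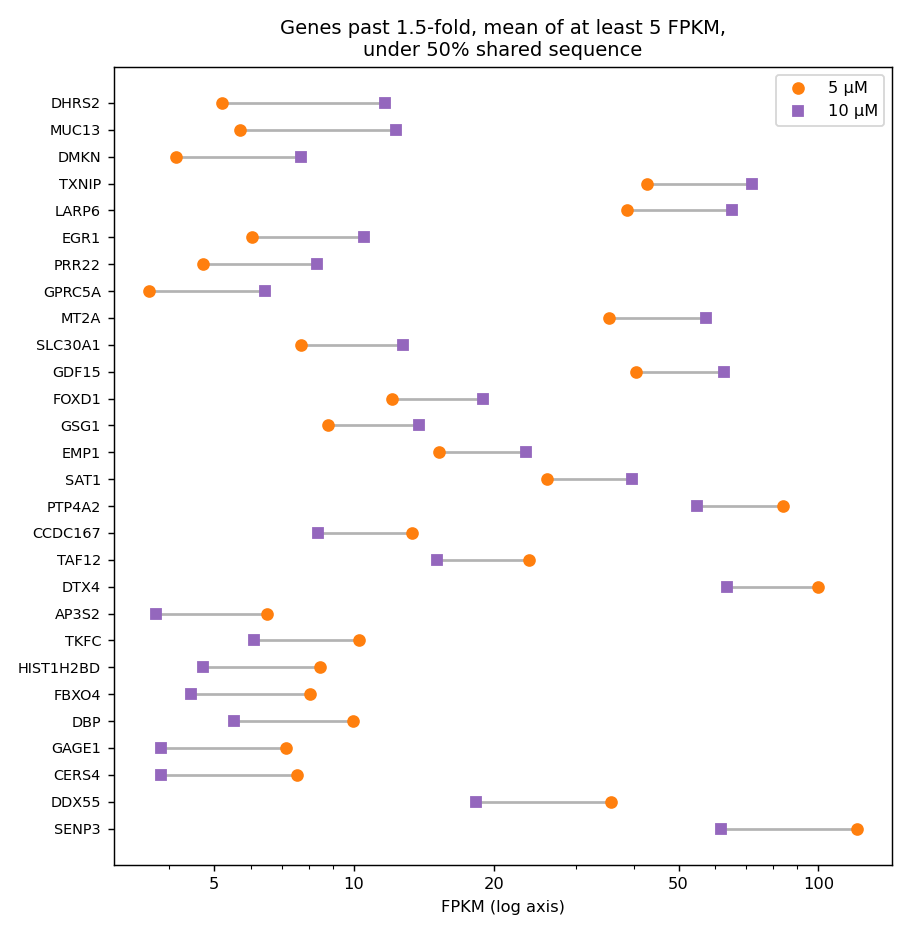
FPKM at 5 µM (circles) and 10 µM (squares) of BAS on a log axis for 28 of the 29 called genes that average at least 5 FPKM and share under 50% of their 50-base stretches with another gene, 1 library per dose, ordered by the difference of log2(FPKM + 1). The upper 15 genes run from DHRS2 to SAT1 and are higher at 10 µM, and the lower 13 run from PTP4A2 to SENP3 and are lower.

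Metal-responsive genes were among the calls. Metallothioneins are small cysteine-rich proteins that bind zinc and copper, and zinc switches them on through the factor MTF1, which binds metal response elements in their promoters. MT2A was at 35.38 FPKM at 5 µM and 57.26 at 10 µM, 1.62 times as much. SLC30A1, the zinc exporter ZnT1 and another MTF1 target, was at 7.67 and 12.76 FPKM (1.66 times). MT1X was at 26.37 and 29.82 FPKM (1.13 times) and was not called. Of the 7 compared members of the list of metallothioneins and zinc transporters, 6 were above 0 and 2 were called higher, with a median of 0.17. Over all genes 58.8% were above 0 and 0.451% called higher, with a median of 0.04. MTF1 itself was at 5.16 and 5.96 FPKM.

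The promoters of MT2A, MT1X and SLC30A1 are shown to set the 2 called genes beside an uncalled metallothionein. Each sequence is the 250 bases before the RefSeq start on GRCh38.p14, read 5′ to 3′ along the gene: MT2A at chr16:56608334-56608583 on the plus strand, MT1X at chr16:56682220-56682469 on the plus strand, and SLC30A1 at chr1:211579162-211579411 on the minus strand. Capitals mark the core of the metal response element, searched as TGCACNC or TGCGCNC on both strands, with overlapping matches allowed.
MT2A: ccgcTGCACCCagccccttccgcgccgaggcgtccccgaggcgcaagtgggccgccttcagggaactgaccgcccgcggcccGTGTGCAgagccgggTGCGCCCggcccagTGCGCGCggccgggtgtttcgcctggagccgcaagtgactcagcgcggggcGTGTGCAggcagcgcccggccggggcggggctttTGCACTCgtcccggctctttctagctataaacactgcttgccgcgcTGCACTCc
MT1X: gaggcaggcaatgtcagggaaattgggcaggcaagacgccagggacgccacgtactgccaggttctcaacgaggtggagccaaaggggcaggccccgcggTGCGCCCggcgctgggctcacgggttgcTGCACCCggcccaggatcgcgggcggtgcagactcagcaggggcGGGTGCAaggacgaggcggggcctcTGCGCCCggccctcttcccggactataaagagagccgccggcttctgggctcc
SLC30A1: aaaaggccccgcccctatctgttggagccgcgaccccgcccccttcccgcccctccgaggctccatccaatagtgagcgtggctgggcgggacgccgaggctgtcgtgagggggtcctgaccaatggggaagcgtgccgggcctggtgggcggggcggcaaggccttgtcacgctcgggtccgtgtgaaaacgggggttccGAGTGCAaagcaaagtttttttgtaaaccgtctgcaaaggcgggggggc
MT2A held 7 matches, MT1X 4 and SLC30A1 1. Of all 35116 promoter windows of this length, 24.8% held at least 1 match, 0.370% at least 4 and 0.0513% at least 6. MT2A had more matches and a higher ratio than MT1X, while SLC30A1 held the fewest matches and had the highest ratio. Whether the matches bear on the dose ratios was not tested.

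Keratins and other epithelial surface genes had the highest median of the 48 lists with at least 5 compared members. All lists were chosen with earlier results of these data known, so this rank is not independent of the values. Keratins are the intermediate filaments of epithelia, and KRT14 and KRT16 belong to stratified epithelium. The 19 members compared had a median difference of 0.43, against 0.04 over all genes, with 15 above 0 and 4 below. There were 6 called higher and none lower: LGALS3 and MUC13, given above, KRT14, KRT16, EMP1 and S100A10, against 0.451% called higher and 0.373% lower over all genes. LGALS3 and S100A10 (0.96 and 1.96 FPKM) were under 1 FPKM at 5 µM and passed the filter only through the 10 µM library. KRT14 was at 2.01 FPKM at 5 µM and 4.87 at 10 µM, and KRT16 at 2.20 and 4.71. KRT16 holds 11.2% of the 50-base stretches of KRT14, so a share of the reads cannot be assigned to 1 of them.

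The more abundant members of that list did not all stand higher. EMP1, a membrane protein of squamous epithelium, was at 15.21 and 23.50 FPKM (0.60). KRT7, a keratin of simple epithelia, was at 14.77 and 22.26 FPKM (0.56), and CSTA, the cystatin of the cornified envelope, at 33.72 and 47.80 (0.49), both under the limit. KRT15, a keratin of basal cells, was lower at 10 µM, at 84.92 and 65.58 FPKM (−0.37), and KRT19 was at 3.34 and 2.46 FPKM (−0.33). With the low genes kept in, the list's 28 members in the files had a median of 0.19.

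Immediate early genes, the first transcribed after a growth factor or stress signal and needing no new protein, lay mostly above 0. Of the 23 members compared 22 were above 0, against 58.8% of all genes, and the median was 0.22. FOS was at 0.92 FPKM at 5 µM and 2.44 at 10 µM (0.84), and EGR1, a zinc finger factor downstream of ERK and SRF, was at 6.02 and 10.49 (0.71). These were the only 2 called, against 0.451% called higher over all genes, and FOS passed the filter only through the 10 µM library. MAFF, at 0.73 and 1.31 FPKM and counted among the 22 above 0, also passed only through that library. JUND, a JUN family member, was at 91.89 and 119.77 FPKM (0.38), JUNB at 99.18 and 113.38 (0.19), and JUN itself at 50.56 and 53.74 (0.09). MYC was at 33.17 and 38.82 FPKM (0.22). The member below 0 was CYR61, a secreted matricellular target of YAP and SRF, at 168.90 and 162.78 FPKM.

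Genes that report ERK activity were split evenly. Of 16 compared, 8 were above and 8 below 0, with a median of 0.01 whose sign depended on the scaling, and EGR1 was the only one called. Among all genes 58.8% were above 0, 40.9% below and 0.451% called higher. DUSP6, the phosphatase that ERK induces to limit itself, was at 43.28 FPKM at 5 µM and 40.82 at 10 µM (−0.08). SPRY2, a feedback inhibitor of receptor signalling, was at 8.51 and 6.76 FPKM (−0.29), and DUSP4 at 4.96 and 3.67 (−0.35), while SPRY4 was at 4.02 and 4.87 (0.23) and the transcription factor ETV4 at 12.08 and 14.14 (0.21).

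Members of the cascade itself differed little. The 26 genes of the RAS-ERK cascade had a median of 0.09 with none called. All genes compared had a median of 0.04, with 58.8% above 0 and 0.825% called. ERK1 (MAPK3) was at 27.23 and 24.20 FPKM, MEK1 (MAP2K1) at 33.36 and 37.31 and MEK2 (MAP2K2) at 93.43 and 99.34. The lowest was FGFR1, a growth factor receptor, at 133.92 and 107.65 FPKM (−0.31). The 21 genes of the JNK and p38 cascade had a median of 0.07 and no call, and its lowest member was MAP2K6, a p38 kinase kinase, at 4.63 and 2.89 FPKM (−0.53). Of the 13 dual specificity phosphatases, which remove phosphate from MAP kinases, 10 were above 0 and none was called. DUSP2 was at 13.23 and 20.10 FPKM (0.57), and DUSP5 at 7.91 and 11.69 (0.51).

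**Figure D3:**
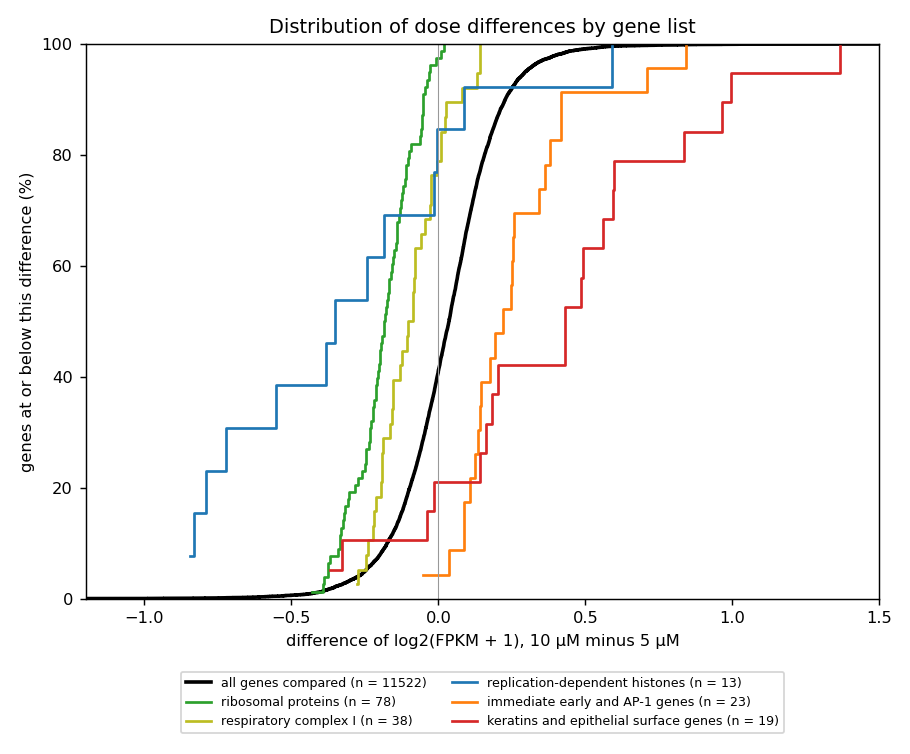
Cumulative share of genes (vertical, percent) at or below each difference of log2(FPKM + 1), 10 µM minus 5 µM (horizontal), for all 11522 genes and 5 gene lists, 1 library per dose. The curves of the ribosomal proteins, complex I and the histones lie to the left of that of all genes, and those of the immediate early and epithelial genes lie to the right.

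The Notch list, whose receptor pathway opposes neuroendocrine fate in this tumour type, had 12 of 14 members above 0, a median of 0.21 and no call. All genes compared had 58.8% above 0 and 0.825% called. HES6, an inhibitory relative of the Notch target HES1, was the highest, with a difference of 0.47, and HES1 itself was at 18.90 and 19.88 FPKM (0.07). The target NRARP was at 4.41 and 6.09 FPKM (0.39), and HEY1 at 1.06 and 1.80. Among neuroendocrine and neuronal genes 14 of 21 were above 0, with a median of 0.05 and no call. CHGA, chromogranin A of the secretory granule, was at 4 and 6.41 FPKM (0.57), while SNAP25, a fusion protein of synaptic vesicles, was at 98.39 and 92.82 (−0.08).

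Stress programmes were mixed. Genes of the integrated stress response and its factor ATF4 had a median of 0.09, with 29 of 44 above 0, and GDF15 was the only one called. The median over all genes was 0.04, with 58.8% above 0 and 0.451% called higher. FGF21, a secreted metabolic hormone, was at 38.43 FPKM at 5 µM and 53.94 at 10 µM (0.48), ATF5 at 65.49 and 89.00 (0.44), and TRIB3, a pseudokinase that feeds back on ATF4, at 77.31 and 99.98 (0.37). On the other side stood SARS, the seryl-tRNA synthetase, at 169.06 and 132.38 FPKM (−0.35), and ATF4 itself was at 353.69 and 331.17 (−0.09).

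Targets of p53 were divided about as all genes were. Of 24 compared 14 were above 0 (58.3%), against 58.8% of all genes. GDF15, which is also on this list, was the only call, where 0.451% of all genes were called higher. CDKN1A, the cyclin-dependent kinase inhibitor p21, was at 158.99 and 202.17 FPKM (0.34), and TP53I3, a quinone reductase, at 13.63 and 18.95 (0.45). Lower at 10 µM were XPC, a DNA damage sensor, at 9.53 and 6.62 FPKM (−0.47), and BBC3, the death activator PUMA, at 8.41 and 6.60 (−0.31). The median of 0.11 became −0.07 among the 17 members of at least 5 FPKM. Inhibitors of cyclin-dependent kinases and G1 regulators had 19 of 22 members above 0 and a median of 0.09, with CDKN2B, the inhibitor p15, at 14.70 and 19.04 FPKM. None of the 26 apoptosis regulators and none of the 27 genes of folding and degradation in the endoplasmic reticulum was called. With 0.825% of all genes called, no call is the usual outcome in lists of this size.

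Ribosomal protein genes lay almost uniformly below 0. They encode the structural proteins of the cytosolic ribosome, and 76 of the 78 were below 0, with a median of −0.18 against 0.04 over all genes and 40.9% of all genes below 0. None was called, and the range ran from −0.43 to 0.02. Together they made up 25.66% of the summed FPKM at 5 µM and 23.39% at 10 µM. RPL7A was the lowest, at 2279.46 and 1692.03 FPKM, and RPL26 (2112.84 and 2142.20) and RPS27A (601.04 and 604.40) were the 2 above 0. The median was −0.14 after rescaling to a common total and −0.22 with median-ratio scaling, and it was −0.03 after quantile normalization, which gives both libraries the same distribution of values.

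Level and length moved with that result. Genes of at least 300 FPKM other than ribosomal proteins had a median of −0.07 (n = 120), and the shortest 20% of transcripts had one of −0.01 against 0.07 for the longest 20%. With smooth trends (lowess) on length and GC content removed, the median of the ribosomal proteins was −0.13. The part of level and length in the result was not tested further. Many processed pseudogenes copy these genes, and how the authors' counting treated reads that match several places is not given in the sources used here.

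Other genes of translation stood on the same side. EEF1A1, the elongation factor that delivers aminoacyl-tRNA, was at 3353.38 FPKM at 5 µM and 2692.34 at 10 µM (−0.32), EEF2, the translocation factor, at 2070.30 and 1701.38 (−0.28), and RACK1, a scaffold on the small ribosomal subunit, at 2298.83 and 1902.22 (−0.27). These and the other members of a group of 15 translation factors were looked at after the ribosomal protein values were seen. In that group 14 were below 0, the median was −0.25, and EIF4A2 was the lowest at −0.43. Of 78 mitochondrial ribosomal proteins, also taken up afterwards, 55 were below 0, with a median of −0.05. The 23 factors of ribosome production in the nucleus, by contrast, had 12 members above 0 and 11 below.

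Many messages of the translation machinery begin with a run of pyrimidines at the transcript start, the terminal oligopyrimidine tract through which mTORC1 and the protein LARP1 control their translation. The first bases of the 5 ribosomal protein genes with the lowest differences and of EEF1A1 are shown to set that feature beside the values. Each sequence has 10 bases before and 20 bases from the RefSeq start on GRCh38.p14, and capitals mark the run, defined as a C at the start followed by at least 4 more C or T. The places are chr9:133348208-133348237 on the plus strand for RPL7A, chr3:51995876-51995905 on the minus strand for RPL29, chr3:101686699-101686728 on the minus strand for RPL24, chr12:56116623-56116652 on the plus strand for RPL41, chr19:54200848-54200877 on the plus strand for RPS9 and chr6:73521013-73521042 on the minus strand for EEF1A1.
RPL7A: attccctttcCTTTCTCTCTCCTCCCgccg
RPL29: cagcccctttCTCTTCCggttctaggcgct
RPL24: atgattctctCTTTCTTTTCgccatctttt
RPL41: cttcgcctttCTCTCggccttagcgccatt
RPS9: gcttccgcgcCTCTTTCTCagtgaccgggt
EEF1A1: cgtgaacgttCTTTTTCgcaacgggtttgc
The differences of these 6 genes were −0.43 for RPL7A, −0.39 for RPL29, −0.39 for RPL24, −0.37 for RPL41, −0.37 for RPS9 and −0.32 for EEF1A1. A start with such a run was annotated for 46 of the 62 ribosomal protein genes in the promoter table (74.2%) and for 712 of the 9190 compared genes there (7.75%). Of all 35116 start windows 4.07% held one. The 46 ribosomal protein genes with the run had a median of −0.17, and the 16 without it had one of −0.19. The 666 other genes with a run had a median of −0.00, against 0.04 over all genes.

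Nuclear genes of the respiratory chain lay below the median of all genes in each of 3 lists. Complex I, which oxidizes NADH, had 30 of 38 members below 0 and a median of −0.09. Complexes II, III and IV had 17 of 23 below 0 and a median of −0.11, and ATP synthase had 11 of 15 and −0.12. Over all 76 genes 58 were below 0 and 18 above, and none was called. Among all genes compared 40.9% were below 0 and 0.825% were called. In complex III, the known target of ascochlorin, UQCRB was at 20.87 FPKM at 5 µM and 15.76 at 10 µM (−0.38), the Rieske protein UQCRFS1 at 94.99 and 86.02 (−0.14), and UQCRQ at 59.40 and 66.30 (0.16). DHODH was at 6.27 and 6.01 FPKM (−0.05), and the 20 genes of pyrimidine and purine synthesis had 10 members on each side of 0. Like the ribosomal proteins, many of these genes are short and abundant, and their part in the result was not tested.

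Replication-dependent histones, which package new DNA in S phase and whose messages mostly end in a stem-loop without a poly(A) tail, had the lowest median of the 48 lists. This list too was chosen with earlier results of these data known. The 13 compared had a median of −0.35, with 11 below 0, 4 called lower and 1 called higher. Over all genes 40.9% were below 0, 0.373% were called lower and 0.451% higher. Whether the libraries were made from poly(A)-selected RNA is not given in the sources used here, so what share of these messages the values cover is unknown. HIST1H2BK was at 22.26 FPKM at 5 µM and 12.44 at 10 µM (−0.79), HIST1H2BD at 8.44 and 4.72 (−0.72), HIST1H4K at 8.31 and 4.23 (−0.83) and HIST1H4C at 1.80 and 0.56 (−0.84). HIST1H2AM was the member called higher, at 0.98 and 1.98 FPKM. Both it and HIST1H4C were under 1 FPKM in 1 library and passed the filter only through the other. The most abundant, the linker histone HIST1H1C, was at 32.89 and 25.55 FPKM (−0.35). The median moved to −0.05 with all 31 members in the files, and to −0.64 with the 6 of at least 5 FPKM. HIST1H2BK shares 74.1% of its 50-base stretches with other genes, and HIST1H4K has a near-identical copy, HIST1H4J, listed at 0 in both libraries.

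The lists of DNA replication and mitosis had medians near that of all genes. The 38 genes of DNA replication had a median of −0.01 and the 37 of mitosis one of 0.03, with a sign that depended on the scaling. Neither list had a call, where 0.825% of all genes were called. MCM2, a subunit of the replicative helicase, was the lowest of the replication genes at 98.97 and 79.93 FPKM (−0.30). FOXM1, the factor that drives mitotic genes, was at 78.09 and 92.06 FPKM (0.23).

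Lipid genes differed by pathway. The 26 genes of cholesterol synthesis and uptake had 17 members below 0 and a median of −0.04. Among all genes compared 40.9% were below 0, 58.8% were above 0 and 0.825% were called. MVD, the mevalonate diphosphate decarboxylase, was at 9.27 FPKM at 5 µM and 6.59 at 10 µM (−0.44), and SQLE, the squalene epoxidase, at 12.77 and 15.15 (0.23). Of 7 genes of sterol efflux, targets of the liver X receptors among them, 6 were above 0, with a median of 0.19. APOC1 was at 22.70 and 28.40 FPKM (0.31), and none was called. Targets of PPAR receptors and genes of fatty acid oxidation had a median of 0.09, and CD36 was the only call of 22. PLIN2, a lipid droplet coat protein that PPARs induce, was at 26.08 and 26.42 FPKM.

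**Figure D4:**
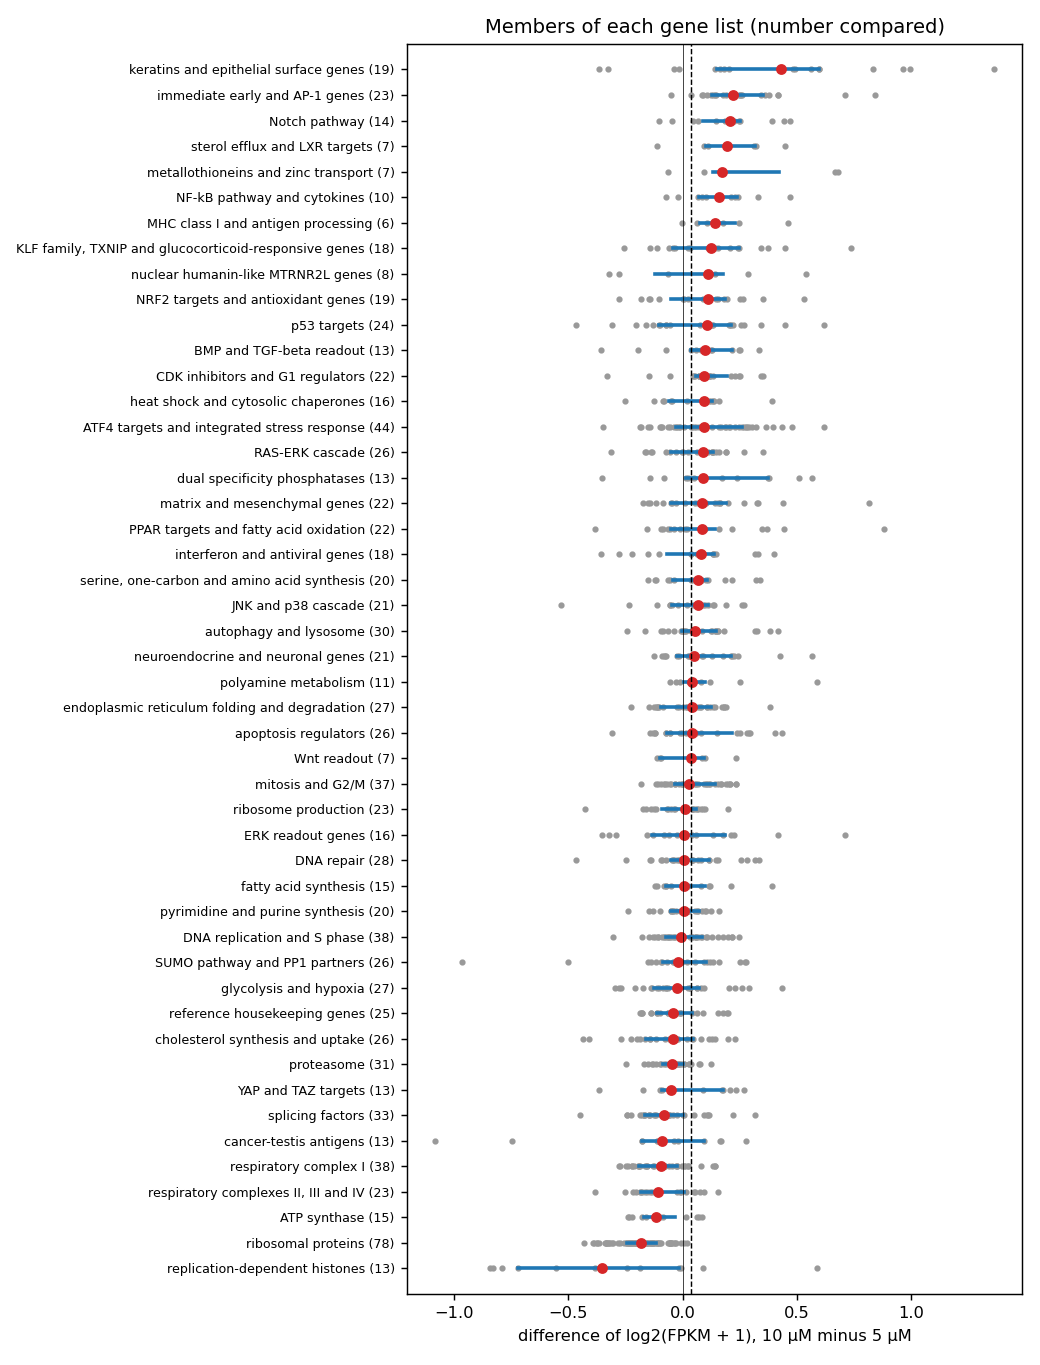
Differences of log2(FPKM + 1), 10 µM minus 5 µM, for the compared members (grey points) of the 48 lists with at least 5 of them, with each list's median (red) and middle 50% of members (blue bar). The dashed line is the median of all genes at 0.04, and list medians run from −0.35 for the histones to 0.43 for the keratins and epithelial surface genes.

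Over the 48 lists 28 medians were above that of all genes and 20 below, and 13 of all 50 lists had a called member. Among the 1016 genes on any list that were compared, 23 were called, where 0.825% of all genes were. The lists were chosen with earlier results of these data known, so this count is not independent of the values. Lists with no call and a median near that of all genes included DNA repair at 0.01, fatty acid synthesis at 0.01, autophagy and lysosome genes at 0.05 and endoplasmic reticulum folding at 0.04. The 25 reference housekeeping genes had a median of −0.04, above 0 after rescaling to a common total, with ACTB at 2237.55 and 2086.16 FPKM and GAPDH at 3612.26 and 3336.99.

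Near-identical genes and read-through symbols were called in larger shares than other genes. Of 30 read-through symbols 8 were called (26.7%), and of 271 genes sharing at least 50% of their 50-base stretches 17 were (6.27%), against 0.676% of the 11246 genes of neither kind. The cancer-testis antigens MAGEA2 and MAGEA2B encode the same protein from neighbouring copies. MAGEA2 was at 27.89 FPKM at 5 µM and 12.64 at 10 µM, MAGEA2B at 11.75 and 24.99, and their sum at 39.64 and 37.63. The sulfotransferases SULT1A3 and SULT1A4 crossed in the same way, and their sum was 7.07 and 6.92 FPKM. These were 2 of the 8 near-identical pairs with a called gene, and the only ones whose sums were within 1.1 times of each other at both doses.

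In the other pairs the sum was higher at 10 µM in 3 and lower in 3. A pair was taken up because it held a called gene, and its sum contains the value of that gene. RGPD5 and TBC1D3E were under 1 FPKM at 5 µM and passed the filter only through the 10 µM library. FAM72C was under 1 FPKM at 10 µM and passed only through the 5 µM library, so all of these had to differ. SH3BGR and its read-through partner WRB-SH3BGR summed to 9.38 FPKM at 5 µM and 15.81 at 10 µM, RGPD5 and RGPD6 to 3.44 and 4.14, and TBC1D3E and TBC1D3 to 0.66 and 1.60. HIST1H4K, whose copy was listed at 0, is given above. FAM72C was at 4.30 and 0.90 FPKM with its copy FAM72D at 1.93 and 2.45, and the sum of these was 6.23 and 3.35 FPKM. TMEM191B and its copy TMEM191C summed to 6.24 and 3.87 FPKM. Each sum takes in only the partner with the most shared sequence, so any further copies are not covered. Among the read-through symbols, BCL2L2-PABPN1 had the highest difference of all genes compared, 1.63, at 1.19 and 5.76 FPKM, while PABPN1, the nuclear poly(A)-binding protein, was at 115.01 and 115.74 and BCL2L2, a survival protein of the BCL2 family, at 12.78 and 15.39. NME1-NME2 was at 11.49 and 5.53 FPKM beside the nucleoside diphosphate kinases NME1 at 298.15 and 331.35 and NME2 at 697.29 and 651.75.

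**Figure D5:**
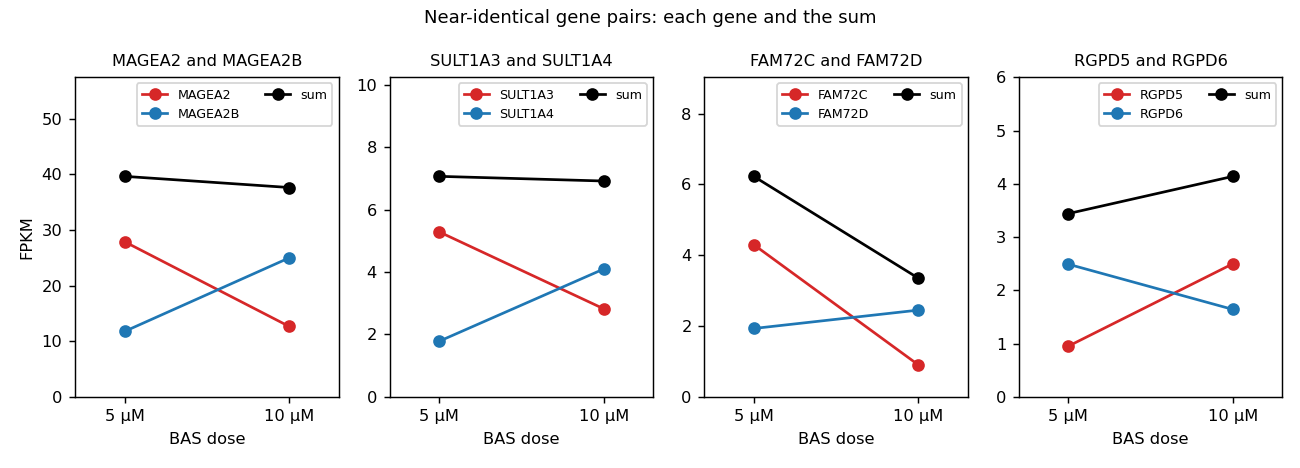
FPKM (vertical) at 5 µM and 10 µM of BAS for 4 of the 8 pairs of near-identical genes with a call, each gene in colour and their sum in black, 1 library per dose. Within each pair 1 gene is higher and the other lower at 10 µM, and the sums of the MAGEA2 and SULT1A3 pairs stay nearly level while those of the FAM72C and RGPD5 pairs do not. Any further copies of these genes are left out of the sums.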

How the data were processed

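Total RNA of H446 cells was sequenced after 48 h with BAS at 5 or 10 µM, 1 library per dose. Per the file headers, the authors deposited FPKM. Trim Galore, BWA, Bowtie2, Cufflinks and Cuffdiff with hg19 are named in the submitters' processing notes, with versions, settings and scaling not given in the sources used here. No whole-read steps were seen in the low values, so the counting error behind a value cannot be computed.

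The files were joined on gene symbol, and rows of a repeated symbol were summed (2 symbols). Differences used a pseudocount of 1, a mean of at least 1 FPKM and a 1.5-fold limit. These settings were also run on simulated data. That run cannot show how many of the calls are false, because the spread between replicates is unknown. Named genes were the 15 highest and 15 lowest, the 10 highest and 10 lowest of at least 50 FPKM, up to 4 per list and 12 fixed genes, 231 in all. Printed genes outside this rule, among them DMKN, FOXD1, GPRC5A, DBP, KRT7, KRT15, JUND, MT1X, SNAP25, SPRY2, RPS9, EIF4A1, EIF4A2, EEF1A1, EEF2 and RACK1, were chosen after their values were seen. The comparison and the 50 lists were chosen with earlier results of these data known. Length, GC content and shared 50-base stretches came from GENCODE 29 by symbol (98.7% of genes and 92 of the 95 called), and promoters from the RefSeq table of GRCh38.p14. Only the longest protein-coding transcript of each symbol was used, so sequence shared with pseudogenes or non-coding transcripts was not counted. In the shares of calls, unmatched genes were taken as not sharing sequence. Alternatives were other pseudocounts, filters, limits and scalings, and genes with shared sequence, read-through symbols or ribosomal proteins left out. The calculations ran in Python 3.11.15 with pandas 2.3.3, numpy 2.4.6, statsmodels 0.14.6 and scipy 1.17.1. Some genes of the lists and calls are not reported here.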

Additional observations from a re-analysis of the deposited data

How the results depend on the processing

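With 1 library per dose no replicate could be left out. No paired analysis was possible because each dose has a single library. The 52 genes called higher became 138 with a pseudocount of 0.1, 95 with 0.5, 19 with a mean of at least 5 FPKM, 5 at 2-fold and 455 at a looser fold limit. The 43 called lower became 97 with a pseudocount of 0.1, 17 with the higher filter, 4 at 2-fold and 318 at the looser one. The scalings moved the split of higher against lower calls, with 41 and 52 after median-ratio scaling, 67 and 33 after rescaling to a common total, 41 and 54 after quantile normalization, and 59 and 33 with GC and length trends removed. Of the 95 calls, 84, 85, 83 and 80 remained under these. Without genes of shared sequence 42 were higher and 33 lower, and without read-through symbols, an alternative chosen after seeing the data, 48 and 39. The median over all genes lay between −0.00 and 0.08. Of 43 named genes past the limit, 40 were past it under every alternative that gave a value, and the exceptions were GDF15, PTP4A2 and SAT1. Of 49 list medians 34 kept their sign throughout. None of these 43 named genes changed sign. Many of them were named for the size of their difference, so these counts do not gauge the calls at large.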

Other observations

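Genes of elastic fibres were abundant at both doses. ELN, elastin, was at 2160.20 FPKM at 5 µM and 2309.10 at 10 µM, and MFAP4, a microfibril-associated glycoprotein that binds it, was at 1153.30 and 1525.26 (0.40). The iron storage subunits were both slightly higher at 10 µM, FTH1 at 1482.19 and 1693.35 FPKM (0.19) and FTL at 1314.73 and 1456.93 (0.15), while most genes of that abundance were lower. MTRNR2L1, a nuclear gene with sequence like mitochondrial ribosomal RNA, was at 893.90 and 1298.33 FPKM (0.54), and its relative MTRNR2L8 at 4318.95 and 4674.50 (0.11). On that list of 8 compared genes 3 were below 0, among them MTRNR2L3 at 22.67 and 18.50 FPKM (−0.28) and MTRNR2L4 at 3.12 and 2.29 (−0.32). Sequence shared with the mitochondrial RNA was not measured. How many of the reads behind the MTRNR2L values came from that RNA is unknown. FTH1 and FTL belong to the list of NRF2 targets and antioxidant genes, which had a median of 0.11 with 13 of 19 members above 0, and none was called. Among all genes compared 58.8% were above 0 and 0.825% were called. ELN and MFAP4 were chosen after their values were seen.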
